A study of Mus musculus with 8 samples.

Results

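The genes described here are NRF2 (Nfe2l2), its inhibitor KEAP1 (Keap1) and 8 antioxidant genes that NRF2 is known to control, Gclc, Gclm, Gsr, Txnrd1, Prdx1, Srxn1, Hmox1 and Nqo1, in sorted DN3 thymocytes of control and Sel1l CKO mice. They were chosen by symbol, and all 10 were found among the 16538 genes of the table. DN3 thymocytes (CD4- CD8- CD44- CD25+) are the stage at which T cell precursors rearrange and test the TCRβ chain. SEL1L is the adaptor of the HRD1 ubiquitin ligase in endoplasmic reticulum (ER)-associated degradation, which clears misfolded proteins from the ER, and the study sequenced both genotypes to ask how its loss affects survival and differentiation of these cells. Poly(A) RNA was sequenced from 4 control and 4 Sel1l CKO libraries, all from C57BL/6 mice aged 6 weeks.

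Both groups carried floxed Sel1l alleles (Sel1l-f/f in the labels), so the controls, labelled WT, were floxed mice without Cre. The Sel1l CKO mice carried in addition the hCD2cre transgene (CD2-iCre), whose human CD2 promoter drives Cre in early lymphoid progenitors, so deletion was not limited to the DN3 stage. Whether 1 library came from 1 or from several animals is not given in the sources used here; the study counts its replicates as independent biological replicates.

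NRF2 is a transcription factor that KEAP1 holds in the cytoplasm and hands to the proteasome. Oxidants and electrophiles modify KEAP1, NRF2 then escapes degradation, enters the nucleus, pairs with small MAF proteins and binds antioxidant response elements in the promoters of genes that make glutathione, recycle thioredoxin and break down heme. PERK, an ER stress sensor, is known to phosphorylate NRF2 in other cells, and much of this control acts on the protein, which RNA-seq does not measure.

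The antioxidant response element has the core TGACNNNGC, and a looser form of it, TGANNNNGC, contains every match of the first. Both were searched on both strands in the 250 bases before each start site in RefSeq (GRCm38.p6), because a match shows where NRF2 could bind these genes. The promoter table used here held 9 windows for 7 of the 10 genes, 3 of them for Txnrd1; Hmox1, Gclc and Gsr were not searched. The strict core was present in 4 of the 9 windows, 1 each of Nfe2l2, Gclm, Prdx1 and Txnrd1, beside 10.2% of all 32851 mouse promoters searched in the same way. The looser form was present in 7 of the 9 windows, from 6 genes, beside 35.2% of all promoters, and Nqo1 was the gene searched without a match. The stretches below are written 5′ to 3′ in the direction of transcription, with the match in capitals; a match that begins with GC lies on the opposite strand.
Nfe2l2, chr2:75704875-75704913, minus strand, 240 bases before the start: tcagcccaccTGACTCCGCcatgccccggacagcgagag
Gclm, chr3:122245403-122245451, plus strand, 134 bases before the start: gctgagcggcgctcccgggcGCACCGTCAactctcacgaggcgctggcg
Txnrd1, chr10:82859094-82859142, plus strand, 92 bases before the start: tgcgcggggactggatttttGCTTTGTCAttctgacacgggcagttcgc
Prdx1, chr4:116685446-116685494, plus strand, 133 bases before the start: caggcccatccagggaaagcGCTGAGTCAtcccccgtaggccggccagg
Srxn1, chr2:152105459-152105507, plus strand, 45 bases before the start: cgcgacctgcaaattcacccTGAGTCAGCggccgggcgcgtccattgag

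The first 4 stretches hold the strict core and the Srxn1 stretch holds only the looser form. Srxn1 had 2 further loose matches, 57 and 158 bases before its start. The Txnrd1 stretch belongs to the middle of its 3 start sites, at position 82859206. The distance from that start to the RefSeq end of the gene, 82897724, is 38519 bases, which is exactly the gene length in the deposited values. These matches are letters in a sequence; binding was not measured.

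The values are RPKM, reads scaled to gene length and library depth. The length the authors used was in most cases the whole gene, introns included, so the RPKM of genes with long introns are low, and reads were therefore recovered from the RPKM steps and are given beside low values. Between 32900253 and 50401359 reads were counted per library. Genotypes were compared with limma on log2(RPKM + 0.1) over the 6512 genes with a mean of at least 1 RPKM, with Benjamini-Hochberg adjustment, and a gene was called when its adjusted p was under 0.05. Of these genes 344 were called (5.28%), 278 of them higher (4.27%) and 66 lower (1.01%) in Sel1l CKO cells. The DN3 stage was checked on 13 marker genes, of which 12, Ptcra, Il2ra, Rag1 and Notch1 among them, had a mean of 1 RPKM or more. The summed level of the 13 was 416 to 502 RPKM in the controls and 352 to 391 RPKM in Sel1l CKO cells, without overlap. The markers did not all fall. Cd3e was at 36.3 to 42.0 RPKM in the controls and 28.5 to 34.2 RPKM in Sel1l CKO cells, while Il2ra, which encodes CD25, was at 16.9 to 18.4 and 17.4 to 23.1 RPKM. The part of these differences in the results below was not tested.

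Sel1l itself measured 1.83, 1.66, 1.61 and 1.57 RPKM in control replicates 1 to 4, and 0.917, 0.876, 1.32 and 1.23 RPKM in Sel1l CKO replicates 1 to 4. The genotypes did not overlap, and Sel1l CKO replicates 1 and 2 were the lowest. The mean was 65.1% of control, with a log2 fold change of -0.59 (SE 0.13, limma with Benjamini-Hochberg adjusted p = 0.0327). In bulk RNA, fewer deleted cells and less transcript lost per cell cannot be told apart. The reads were also counted over the whole gene and not over the floxed part alone, so the extent of deletion was not measured. The study describes depletion with this Cre as efficient, from qPCR of Sel1l and western blots of SEL1L in sorted DN3 and DN4 cells. The call was lost when any 1 of 6 libraries (control replicates 1 to 4, Sel1l CKO replicates 1 and 2) was left out, with adjusted p of up to 0.0981, and with the replicate block (adjusted p = 0.0601).

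None of the NRF2 and antioxidant genes was called between genotypes. Of the 10 genes, 7 passed the filter and 3 (Hmox1, Nqo1, Srxn1) were too low for the fit. Of the 7, 0 were called with limma, against 5.28% of all genes tested. At an unadjusted p under 0.05 there was 1, Gclc, which was lower in Sel1l CKO cells, against 20.8% of all genes. On the recovered reads, limma voom called 0 of the 9 with a mean of at least 10 reads, all but Srxn1 (4.23% of 11809 genes), and with array weights limma called 1 of the 7, again Gclc (9.83% of all genes). The log2 fold changes lay between -0.19 and 0.22, with 4 above 0 and 3 below and a median of 0.03, beside a median of 0.01 over all tested genes. The 95% intervals reached at most 0.54 on the log2 scale, the upper bound for Gclm.

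**Figure D1:**
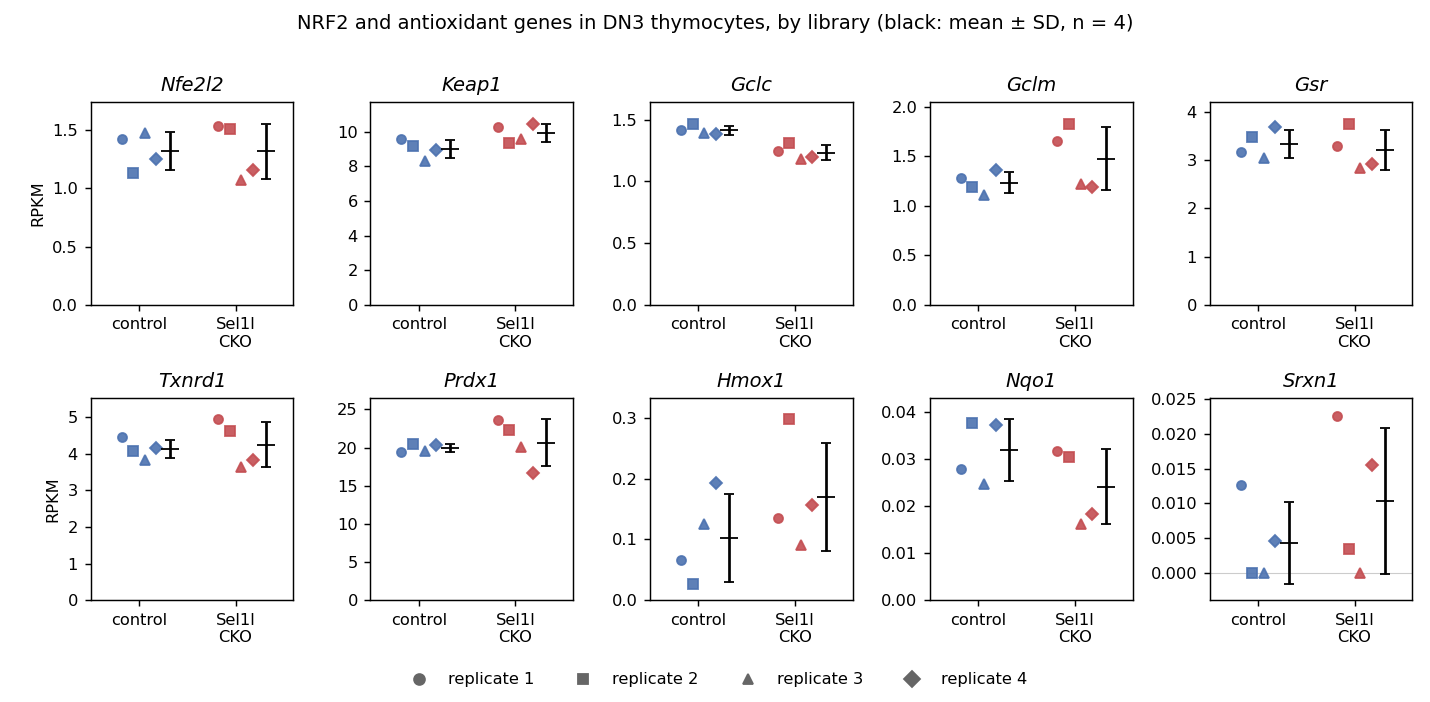
RPKM (linear vertical axis, a different range in each panel) of the 10 genes in each library, with control in blue, Sel1l CKO in red, and the mean ± SD of 4 libraries in black; marker shapes give the replicate number. Gclc is the only gene whose genotypes do not overlap (control 1.38 to 1.47, Sel1l CKO 1.18 to 1.31 RPKM). In the panels of Nfe2l2, Gclc, Gclm, Gsr, Txnrd1, Prdx1 and Nqo1 the first 2 Sel1l CKO libraries lie above the other 2.

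The regulators came first. Nfe2l2 (ENSMUSG00000015839.6, chr2:75675513-75704641, minus strand, GRCm38) measured 1.43, 1.13, 1.48 and 1.25 RPKM in the controls and 1.53, 1.51, 1.08 and 1.16 RPKM in Sel1l CKO replicates 1 to 4, from 1031 to 2211 reads per library. The highest and the lowest of the 8 values were both Sel1l CKO libraries. The means were 1.32 ± 0.159 and 1.32 ± 0.235 RPKM (SD, n = 4 each), and the log2 fold change was -0.01 (SE 0.13, 95% interval -0.31 to 0.29, limma adjusted p = 0.976). As a share of control that interval runs from 80.6% to 122%.

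Keap1 (ENSMUSG00000003308.15, chr9:21229730-21239361, minus strand) measured 9.58, 9.17, 8.33 and 8.96 RPKM in the controls and 10.3, 9.36, 9.61 and 10.5 RPKM in Sel1l CKO cells. It was 9.01 ± 0.521 against 9.93 ± 0.533 RPKM (SD, n = 4 each), the groups overlapped by 1 control library, and the difference did not pass the test (log2 fold change 0.14, SE 0.07, 95% interval -0.01 to 0.29, limma adjusted p = 0.286). An antisense gene overlaps Keap1, and whether strand was used in counting is not given in the sources used here.

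Glutathione is made from cysteine in a first, rate-limiting step by glutamate-cysteine ligase, whose catalytic subunit is encoded by Gclc and whose modifier subunit by Gclm. Gclc (ENSMUSG00000032350.9, chr9:77754535-77794485, plus strand) measured 1.42, 1.47, 1.39 and 1.38 RPKM in the controls and 1.25, 1.31, 1.18 and 1.20 RPKM in Sel1l CKO cells, from 1549 to 2801 reads per library. All 4 Sel1l CKO libraries lay below all 4 controls, which was also so, in 1 direction or the other, for 14.7% of all tested genes. Gclc was at 87.1% of control (1.41 ± 0.0385 against 1.23 ± 0.0591 RPKM, SD, n = 4 each), with a log2 fold change of -0.19 (SE 0.07, 95% interval -0.34 to -0.03) and an unadjusted limma p of 0.0237. After Benjamini-Hochberg adjustment over all genes it was 0.167, and over 12 other settings of the analysis the adjusted p ranged from 0.0386 to 0.305.

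Gclm (ENSMUSG00000028124.15, chr3:122245557-122270732, plus strand) measured 1.28, 1.19, 1.10 and 1.36 RPKM in the controls and 1.66, 1.83, 1.22 and 1.19 RPKM in Sel1l CKO cells. Sel1l CKO replicates 1 and 2 lay above all controls, and replicates 3 and 4 lay among them. The modifier subunit had the largest difference of the 7 genes in the fit, a log2 fold change of 0.22 (SE 0.14, 95% interval -0.10 to 0.54, limma adjusted p = 0.408), which did not pass the test and was 0.12 without Sel1l CKO replicate 2.

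Gsr encodes glutathione reductase, which returns oxidised glutathione to its reduced form with NADPH. Gsr (ENSMUSG00000031584.16, chr8:33652523-33698163, plus strand) measured 3.17, 3.47, 3.04 and 3.68 RPKM in the controls and 3.31, 3.76, 2.84 and 2.92 RPKM in Sel1l CKO cells. The groups overlapped (3.34 ± 0.290 against 3.21 ± 0.418 RPKM, SD, n = 4 each), and the log2 fold change was -0.06 (SE 0.10, 95% interval -0.29 to 0.17, limma adjusted p = 0.765).

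Thioredoxin is kept reduced by thioredoxin reductases, of which Txnrd1 encodes the cytosolic form. Txnrd1 (ENSMUSG00000020250.10, chr10:82833951-82897712, plus strand) measured 4.45, 4.08, 3.83 and 4.15 RPKM in the controls and 4.93, 4.61, 3.63 and 3.82 RPKM in Sel1l CKO cells. The Sel1l CKO libraries bracketed the controls, with 2 above the highest and 2 below the lowest. The log2 fold change was 0.03 (SE 0.10, 95% interval -0.20 to 0.27, limma adjusted p = 0.889). A further protein-coding gene, Eid3, lies within Txnrd1 on the same strand.

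Prdx1 encodes a peroxiredoxin, a peroxide-reducing enzyme that thioredoxin regenerates, and was the most abundant of the 10 transcripts. Prdx1 (ENSMUSG00000028691.12, chr4:116685544-116700822, plus strand) measured 19.4, 20.4, 19.6 and 20.4 RPKM in the controls and 23.6, 22.3, 20.03 and 16.6 RPKM in Sel1l CKO cells. The controls lay close together while the Sel1l CKO libraries spread to both sides of them, with an SD of 0.548 RPKM in the controls and 3.06 RPKM in Sel1l CKO cells. The log2 fold change was 0.04 (SE 0.10, 95% interval -0.20 to 0.27, limma adjusted p = 0.869). Whether the spreads themselves differed was not tested.

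Srxn1 encodes sulfiredoxin, which repairs overoxidised peroxiredoxins and is widely used as an NRF2 target gene. Srxn1 (ENSMUSG00000032802.8, chr2:152105516-152111376, plus strand) had 3, 0, 0 and 1 reads in the controls and 5, 1, 0 and 3 reads in Sel1l CKO cells. The log2 difference was 0.08, and 0.44 with a pseudocount of 0.01. With at most 5 reads in a library, no difference was detectable at this depth (exact permutation test with a pseudocount of 0.1, two-sided p = 0.371). Srxn1 was thus close to absent from the reads of all 8 libraries.

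Nqo1 encodes the quinone reductase NQO1, another standard readout of NRF2. Nqo1 (ENSMUSG00000003849.8, chr8:107388225-107403206, minus strand) had 17, 27, 13 and 21 reads in the controls and 18, 23, 8 and 9 reads in Sel1l CKO cells. In RPKM this was 0.0319 ± 0.00658 against 0.0242 ± 0.00806 (SD, n = 4 each). The genotypes overlapped, and the log2 difference of -0.09 did not pass the exact permutation test (two-sided p = 0.229, and 0.371 after Benjamini-Hochberg adjustment over the 3 low genes). All values lay below the pseudocount of 0.1, so the size of this difference depends on it. It was -0.31 with a pseudocount of 0.01, and limma voom on recovered reads gave -0.40 (adjusted p = 0.639).

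Hmox1 encodes heme oxygenase 1, which opens the heme ring and releases iron. Hmox1 (ENSMUSG00000005413.8, chr8:75093621-75100589, plus strand) had 19, 9, 31 and 51 reads in the controls and 36, 105, 21 and 36 reads in Sel1l CKO cells, or 0.0667, 0.0269, 0.126 and 0.193 RPKM against 0.136, 0.297, 0.0911 and 0.156 RPKM. Sel1l CKO replicate 2 stood above the other 7 libraries, which overlapped. The log2 difference of 0.43 did not pass the exact permutation test (two-sided p = 0.257, adjusted over the 3 low genes 0.371). The smallest p that 70 assignments allow is 0.0286. The difference was 0.22 without Sel1l CKO replicate 2 and also 0.23 without control replicate 2. Its size depends on the pseudocount, at 0.82 with 0.01, and limma voom on recovered reads gave 1.06 (adjusted p = 0.338).

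Hmox1 is also a macrophage gene, so macrophage markers were read in the same libraries. Slc40a1, the iron exporter ferroportin, had 129 reads in Sel1l CKO replicate 2 and 0 to 5 reads in each of the other 7 libraries. The markers Adgre1 and Csf1r had 0 reads in Sel1l CKO replicate 2 and at most 8 and 6 reads (0.00169 and 0.00596 RPKM) in any library. C1qb also had 0 reads in Sel1l CKO replicate 2, while C1qa had 10, C1qc 13, Mertk 6 and Mrc1 1. Mertk had at most 1 read in any other library, while C1qa reached 15 reads in control replicate 4 and C1qc 22 in control replicate 2. Of the 12 macrophage markers, 7 were under 0.1 RPKM in all libraries and 2, Lyz2 and Cd68, had a mean of at least 1 RPKM. The summed level was 3.70 to 6.48 RPKM in the controls and 2.20 to 4.13 RPKM in Sel1l CKO cells. These levels are deposited RPKM, which divide by the whole gene, so markers with long introns count for little in the sum. The erythroid list was read because red cell precursors handle heme. It summed to 0.0809 to 1.19 RPKM in the controls and 0.538 to 2.69 RPKM in Sel1l CKO cells. Alas2 was at 0 in all libraries, while Hba-a1 had 0, 0, 7 and 10 reads in the controls and 33, 9, 5 and 9 reads in Sel1l CKO cells. The part of other cells in the Hmox1 values was not tested.

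Levels can be compared between these genes only per exon length, since the deposited RPKM divide by the whole gene. On the exon scale the control means fell in the order Prdx1 (100.2 RPKM), Gsr (55.4), Txnrd1 (22.4), Keap1 (18.4), Gclc (15.0), Nfe2l2 (10.1), Gclm (4.94), Hmox1 (0.412), Nqo1 (0.307) and Srxn1 (0.00889). Hmox1 and Nqo1 were the only neighbours in that order whose 4 control libraries overlapped. Prdx1 and the reductases of glutathione and thioredoxin were thus the most abundant of the 10 in DN3 cells, the 2 subunits of glutamate-cysteine ligase were unequal (Gclc over Gclm), and Hmox1, Nqo1 and Srxn1 were low in both genotypes.

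The Sel1l CKO libraries differed among themselves in these genes. In 6 of the 7 tested genes, all but Keap1, both Sel1l CKO replicates 1 and 2 lay above both replicates 3 and 4 (85.7% of the genes, against 34.4% of all tested genes). Among the controls the same order was seen in 2 of the 7 (28.6%, against 18.1% of all tested genes). Of the genes below the filter, Nqo1 had the same order in Sel1l CKO cells, and Hmox1 and Srxn1 did not. The labels name no batch, and this division of the replicates was known from earlier results of these data.

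Calculated within replicates 1 and 2 of both genotypes, the log2 fold change was 0.24 for Nfe2l2, 0.46 for Gclm, 0.16 for Txnrd1, 0.20 for Prdx1 and 0.09 for Gsr. Within replicates 3 and 4 it was -0.26 for Nfe2l2, -0.02 for Gclm, -0.10 for Txnrd1, -0.13 for Prdx1 and -0.21 for Gsr. These 5 genes thus had opposite signs in the 2 sets of replicates, though for Gclm the value in replicates 3 and 4 was only -0.02. Against the mean of all 4 controls, Gsr was at -0.01 in Sel1l CKO replicate 1 and 0.17 in replicate 2. Each set holds 2 libraries per genotype, the division was known beforehand from these data, and the difference between the sets was not tested. The comparison takes controls with the same numbers, and the numbers were not shown to pair samples; the differences from the mean of all 4 controls are plotted beside it. Gclc and Keap1 kept their sign, at -0.16 and -0.21 for Gclc and at 0.07 and 0.21 for Keap1. Sel1l moved with this division, at -0.89 in replicates 1 and 2 and -0.30 in replicates 3 and 4, and the part of residual Sel1l in the order of the antioxidant genes was not tested.

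**Figure D2:**
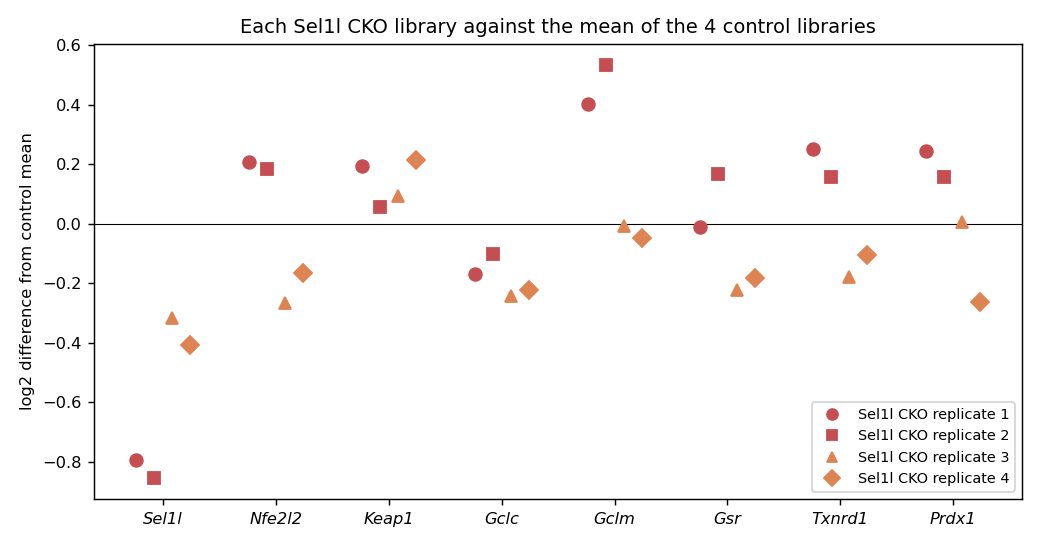
Log2 difference of each Sel1l CKO library from the mean of the 4 control libraries, on log2(RPKM + 0.1), for Sel1l and the 7 tested genes; each marker is 1 library, with replicates 1 and 2 in red and 3 and 4 in orange. For Nfe2l2 the first 2 lie at 0.21 and 0.18 and the other 2 at -0.27 and -0.17, while for Gclc all 4 lie between -0.24 and -0.10.

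Across the 8 libraries, Nfe2l2 levels were most like those of Naa25 (Pearson r = 0.951), Ints14 (0.939) and Mrpl3 (0.932), among 6505 tested genes outside the 10. With the other tested members r was 0.736 for Txnrd1, 0.565 for Gclm, 0.525 for Prdx1, 0.348 for Gsr, 0.227 for Gclc and -0.14 for Keap1. Gclm was most like Adrm1 (0.991), Actn4 (0.989) and Cops3 (0.988), and had r = 0.818 with Txnrd1 and -0.17 with Gclc. The 8 points share genotype and the division between replicates described above, so these values are a description.

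The wider pathway was read from 7 lists of 101 further genes. Of these, 100 were in the table, 60 passed the filter, 5 were higher in Sel1l CKO cells and 0 were lower (8.33% called, against 5.28% of all tested genes); the other 55 were not called, and 40 were below the filter. Chac1 and Sesn2 passed the filter only through the Sel1l CKO libraries, and among the 58 list genes with a mean of at least 1 RPKM in both genotypes 3 were called (5.17%, against 4.97% of all genes of that kind). The median log2 fold change was 0.04, beside 0.01 over all tested genes. The 5 called genes were Chac1, Slc3a2, Sesn2, Mthfd2 and Ftl1. The first 4 are known targets of ATF4, the transcription factor that acts downstream of PERK. Whether ATF4, NRF2 or another factor acted on any of the 5 was not tested. On recovered reads limma voom called 6 of 94, all higher, with Txnl1, a thioredoxin-like protein, added (adjusted p = 0.0495). Without the filter on low values 2 of the 5, Chac1 and Sesn2, were called, and the adjusted p was 0.0791 for Slc3a2, 0.102 for Mthfd2 and 0.0665 for Ftl1.

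**Figure D3:**
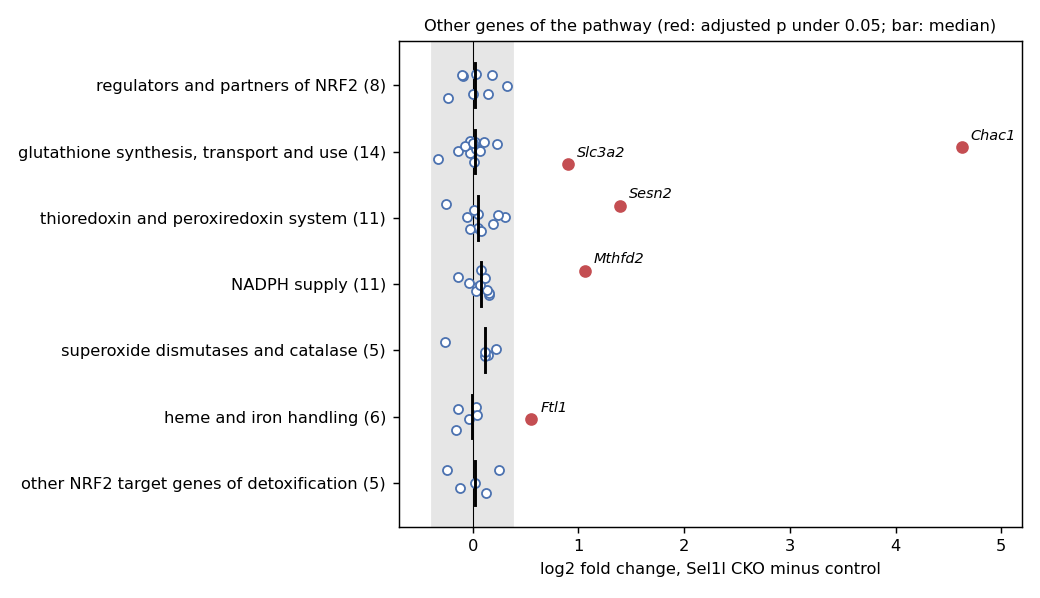
Log2 fold change (Sel1l CKO minus control, on log2(RPKM + 0.1)) of the 60 tested genes in 7 pathway lists, 1 circle per gene, with the number tested in brackets, red for an adjusted p under 0.05, a black bar for the list's median and a grey band from the 5th to the 95th percentile of all tested genes (-0.39 to 0.38). The 5 red genes lie outside the band at 0.56 to 4.62, and the medians lie between -0.0041 and 0.12.

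Among the 8 tested regulators and partners of NRF2, 0 were called and the median was 0.02. The smallest p belonged to Dpp3, a peptidase that can bind KEAP1, at 6.22 ± 0.298 against 7.84 ± 0.759 RPKM (SD, n = 4 each; log2 fold change 0.32, SE 0.08, limma adjusted p = 0.0552), with every Sel1l CKO library above every control. Dpp3 was called under 4 of 13 other settings, at a mean of at least 5 RPKM (limma adjusted p = 0.0418), with median-of-ratios scaling (0.0409), with array weights (0.00386) and with a term for replicates 1 and 2 against 3 and 4 (0.0416), and also without Sel1l CKO replicate 2 (0.0139); over all 13 settings the adjusted p ranged from 0.00386 to 0.155. Next was Nfe2l1, the NRF2-related factor held in the ER membrane. It was at 7.66 ± 0.597 against 8.45 ± 0.186 RPKM (log2 fold change 0.14, limma adjusted p = 0.285).

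In the glutathione list 2 of 14 tested genes were higher, against 4.27% of all tested genes, a share that applies to the lists below as well. Lists this short hold too few calls for a comparison with it. Chac1 encodes a gamma-glutamylcyclotransferase that breaks glutathione down, and had 7, 0, 0 and 0 reads in the controls and 240, 432, 361 and 268 reads in Sel1l CKO cells. It was close to absent from the controls and present in every Sel1l CKO library, so it passed the filter only through the Sel1l CKO group. The fitted log2 fold change was 4.62 (SE 0.20, limma adjusted p = 2.74e-06), a value that depends on the pseudocount, at 1.85 with a pseudocount of 1 and 7.38 with 0.01; voom on recovered reads gave 8.43.

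Slc3a2, the heavy chain that carries the cystine and large amino acid transporters to the membrane, measured 7.71, 6.97, 9.20 and 9.07 RPKM in the controls and 10.8, 20.4, 15.7 and 16.4 RPKM in Sel1l CKO cells (log2 fold change 0.90, SE 0.18, limma adjusted p = 0.0188). All Sel1l CKO libraries lay above all controls; without control replicate 1 or 2 the adjusted p was 0.0627 and 0.0590. Its partner in cystine import, Slc7a11, was looked at after its values had been seen and was below the filter on the deposited scale, where its length is 551089 bases, and also per exon length, where its means were 0.0511 RPKM in the controls and 0.570 RPKM in Sel1l CKO cells. Slc7a11 had 15, 78, 11 and 20 reads in the controls and 54, 708, 273 and 263 in Sel1l CKO cells. The groups overlapped by Sel1l CKO replicate 1 (exact permutation test on log2(RPKM + 0.1), two-sided p = 0.0571), and voom on reads gave a log2 fold change of 3.38 with an adjusted p of 0.116.

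In the thioredoxin and peroxiredoxin list 1 of 11 tested genes was higher, Sesn2, a stress-induced sestrin that restrains mTORC1. Sesn2 measured 0.587, 0.494, 0.531 and 0.389 RPKM in the controls and 1.05, 2.01, 1.41 and 1.53 RPKM in Sel1l CKO cells, without overlap (log2 fold change 1.39, SE 0.18, limma adjusted p = 0.00178). Its mean over the 8 libraries, 1.0004 RPKM, only just passed the filter, and did so through the Sel1l CKO libraries.

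In the NADPH supply list 1 of 11 was higher, Mthfd2, a mitochondrial folate enzyme. Mthfd2 measured 6.23, 5.63, 6.23 and 6.35 RPKM in the controls and 9.31, 22.2, 10.7 and 12.1 RPKM in Sel1l CKO cells, all above the controls (log2 fold change 1.06, SE 0.23, limma adjusted p = 0.0301). The call was lost without any 1 control library or without Sel1l CKO replicate 4, with adjusted p of up to 0.0866. Sel1l CKO replicate 2 was the highest library for Mthfd2, Slc3a2, Sesn2, Slc7a11, Hmox1, Gclm and Gsr. The highest was Sel1l CKO replicate 1 for Nfe2l2, Txnrd1, Prdx1 and Srxn1, replicate 3 for Chac1, and replicate 4 for Keap1 and Ftl1. For Gclc and Nqo1 it was control replicate 2. The share of all tested genes with each library highest was not counted.

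In the heme and iron list 1 of 6 was higher, Ftl1, the ferritin light chain that stores iron, whose reads are uncertain because the genome holds many near-identical copies. Ftl1 measured 254, 266, 307 and 271 RPKM in the controls and 404, 331, 438 and 449 RPKM in Sel1l CKO cells (log2 fold change 0.56, SE 0.10, limma adjusted p = 0.0142). The ferritin heavy chain Fth1, picked after its values had been seen, was at 248 ± 15.3 and 253 ± 13.7 RPKM (SD, n = 4 each; log2 fold change 0.03, limma adjusted p = 0.831), so the light chain rose while the heavy chain did not pass the test; the difference between them was not tested.

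In the list of superoxide dismutases and catalase, which also holds the related genes Ccs and Park7, 0 of 5 genes were called. Sod1, the cytosolic superoxide dismutase, was at 43.8 ± 2.32 against 51.2 ± 3.23 RPKM without overlap (SD, n = 4 each; log2 fold change 0.22, SE 0.07, limma adjusted p = 0.108), and shares its locus with Scaf4 on the other strand. Catalase, Cat, was at 5.26 ± 0.335 against 4.37 ± 0.476 RPKM (log2 fold change -0.27, limma adjusted p = 0.127).

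Of the other NRF2 target genes of detoxification, 5 were tested and 0 called. The smallest p values belonged to the carbonyl-reducing enzyme Akr1a1, at 25.0 ± 1.72 against 29.8 ± 2.04 RPKM (SD, n = 4 each; log2 fold change 0.25, limma adjusted p = 0.0951), and the aldehyde dehydrogenase Aldh2, at 7.61 ± 0.498 against 6.47 ± 0.920 RPKM (log2 fold change -0.24, limma adjusted p = 0.244).

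**Figure D4:**
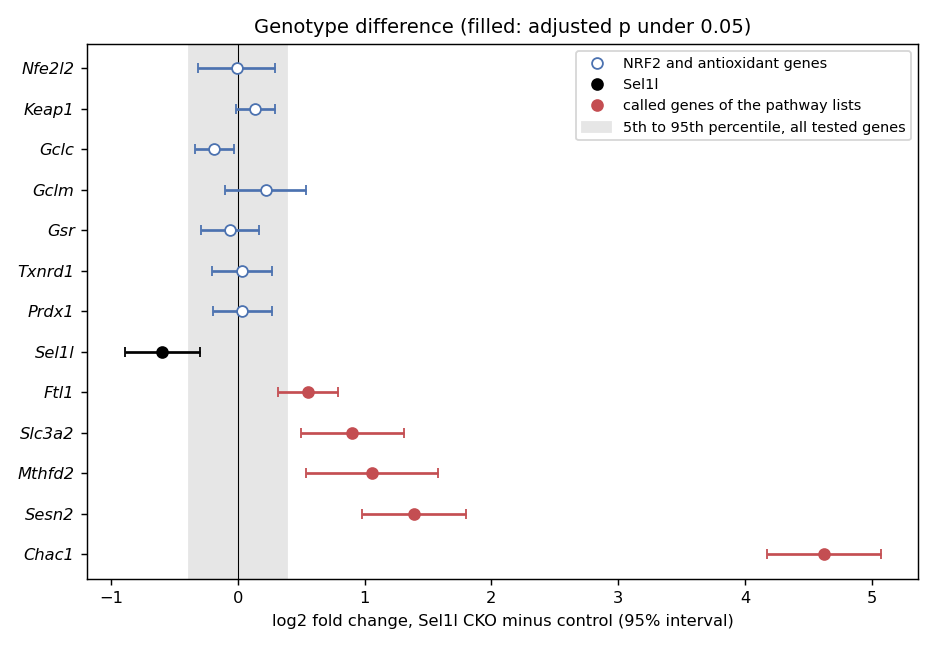
Log2 fold change (Sel1l CKO minus control, on log2(RPKM + 0.1)) with its 95% limma interval for the 7 tested NRF2 and antioxidant genes (blue), Sel1l (black) and the 5 called genes of the pathway lists (red); filled circles have an adjusted p under 0.05 and the grey band is the 5th to 95th percentile of all tested genes. The blue points lie between -0.19 and 0.22, inside the band, and the red points between 0.56 and 4.62, outside it.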

How the data were processed

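DN3 thymocytes (4 control, 4 Sel1l CKO) were sorted into TRIzol LS. According to the study's methods and the submitters' processing notes, the authors sequenced stranded mRNA libraries, aligned reads to GRCm38 with STAR 2.5.2b, counted protein-coding genes with HTSeq 2.7 and used DESeq2. The deposited table holds RPKM, with 682 of 16538 genes at 0 in every library. Values were whole reads (tolerance 0.02 reads) on GENCODE M21 gene spans for 75.8% of the genes with a value and on exon lengths for 3.03%; for 4154 genes the length was solved from the values. Recovered reads set the depth (32900253 to 50401359 per library). Coordinates are 1-based, GENCODE M21.

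The tests used limma 3.58.1 in R 4.3.3 with a mean-variance trend on log2(RPKM + 0.1), so fold changes of low genes are understated, after a filter at a mean of 1 RPKM; genes below it had an exact permutation test. Script behaviour was checked on simulated data. Alternatives were 13 settings of pseudocount, filter, scaling, weights, block and unit (limma voom on recovered reads with a mean of at least 10), and leaving out each of 8 libraries. The genes, lists and markers were chosen with earlier results of these data known. Named genes were the 10 genes, Sel1l, every called list gene and, for lists without a call, the 2 with the smallest p; others are marked. Of 101 list symbols 1 had no match. P-values measure the spread between these libraries, and RNA amplified without molecular identifiers carries more than counting error. All marker sums are of the deposited RPKM, so markers with long introns count for little in them. Early progenitor and DN2, DP and SP, dendritic, B, granulocyte, gamma-delta T and NK, and thymic epithelial marker lists were also read, and their summed levels (control, then Sel1l CKO) were 0.473 to 0.520 and 0.286 to 0.465, 1.88 to 3.93 and 2.29 to 4.59, 1.41 to 3.30 and 1.67 to 3.60, 8.22 to 10.2 and 5.31 to 8.22, 0 to 0.134 and 0 to 0.454, 32.6 to 39.8 and 24.0 to 35.6, and 3.22 to 5.05 and 2.05 to 2.39 RPKM.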

Additional observations from a re-analysis of the deposited data

Results flagged for a closer look

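In 44 groups of 4 libraries, 1 library stood far from the other 3 by Dixon's criterion in 3, where chance gives about 2.2. Chac1 was at 0.0546 RPKM in control replicate 1 and at 0 in the other controls. Mthfd2 was at 5.63 RPKM in control replicate 2 and at 6.23 to 6.35 RPKM in the others. Akr1a1 was at 32.8 RPKM in Sel1l CKO replicate 1 and at 28.6 to 28.9 RPKM in the others. None of the 3 was among the 10 NRF2 and antioxidant genes.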

How the results depend on the processing

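Of 504 results recomputed under 13 settings and 8 left-out libraries, 454 were labelled unchanged, and for the others the cause was not tested. For single genes this meant the same direction and side of the threshold. Counts of called genes could differ and still be labelled unchanged, as with 500 genes by limma voom and 458 on exon length, against 344. The number of genes called was 218 at a mean of at least 5 RPKM (fewer genes tested), 640 with array weights and 525 with a term for replicates 1 and 2 against 3 and 4, and 244 to 314 without 1 library. Of the NRF2 and antioxidant genes in the fit, those called were 1 with array weights (Gclc, log2 fold change -0.22, limma adjusted p = 0.0386) and 0 without any 1 library. The list genes called were 2 with no filter, 9 with array weights and 3 to 5 without 1 library (3 without control replicate 1, control replicate 2 or Sel1l CKO replicate 4). Sel1l was -0.59 with no filter (limma adjusted p = 0.0904), -0.60 with libraries rescaled to 1 sum (0.0649), -0.59 with the replicate block (0.0601) and -0.69 to -0.51 without 1 library. The sign turned for Nfe2l2 under median-of-ratios scaling (0.0036), quantile normalization (0.019) and voom (0.013), for Txnrd1 with array weights (-0.13), and for Prdx1 under quantile normalization (-0.027) and array weights (-0.056). Without 1 library Nfe2l2 ranged from -0.083 to 0.075, Txnrd1 from -0.043 to 0.10 and Prdx1 from -0.033 to 0.14. Same-numbered libraries deviated together with r = 0.162, 0.0973, 0.445 and 0.0051, and only replicate 3 correlated best with its own number, so the numbers were not shown to pair samples; with the replicate block 317 genes were called, 0 of the 7 genes in the fit and 5 of the lists. Array weights gave Sel1l CKO replicates 1 and 2 weights of 0.337 and 0.291, under those of every other library. Depth limits Srxn1, Nqo1 and Hmox1.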
